A study of Drosophila melanogaster with 2 samples.

Results

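The replicate 2 peak list of tonalli (tna) in Drosophila melanogaster embryos held 1147 peaks on the chromosome arms that overlapped no peak of the replicate 1 list. They were 43.0% of the 2669 replicate 2 peaks on these arms. They were chosen by position, as peaks of the replicate 2 list sharing not 1 bp with any of the 2214 replicate 1 peaks on the arms, and they formed 1058 separate regions once overlapping peaks were joined. Against the 1522 replicate 2 peaks that were shared with replicate 1, the 1147 peaks more often held the repeat GAGAGAG, less often the element TATCGATA, lay less often at a transcription start site (TSS), and had GC-richer sequence. The lower TSS share was not particular to them. It was 74.98% here, 71.1% in the 685 peaks found in replicate 1 only and 93.4% in shared peaks. TATCGATA was also less common in replicate 1 only peaks (18.5%) than in shared peaks (30.2%).

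Chromatin immunoprecipitation with sequencing recovers the DNA bound by a protein of interest, here a fusion of tna to eGFP, with an antibody to GFP. Both libraries came from whole embryos aged 0 to 24 h of a transgenic line expressing tna-eGFP, with chromatin sonicated to between 200 and 800 bp, and are labelled biological replicates 1 and 2. There is 1 group, with no second genotype or treatment, and the control libraries named in the labels were not analysed here. Whole embryos of this age span mix all cell types and most of embryogenesis, so a weaker peak cannot be told apart from a peak in fewer cells. The sequencing depth of each library is unknown from the peak lists.

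The protein encoded by tna has an SP-RING domain, as found in SUMO ligases, and was identified through its genetic interaction with the Brahma chromatin remodelling complex. GAGA factor, encoded by Trl, binds GAGAG repeats and keeps promoters and regulatory elements of developmental genes open. TATCGATA is the DNA replication-related element (DRE), bound by Dref at promoters of housekeeping genes, and its inner CGATA is also contacted by the insulator protein BEAF-32.

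The sequences shown are from the strongest peaks of the class that held one of the 2 elements and not the other, by the rule given with the processing, since the comparisons of sequence turn on these elements. Each spans 50 bases either side of the summit, the position of highest signal, on the plus strand of dm6, and capitals mark every match on either strand, so that GAGAGAG may read as CTCTCTC. The GAGA examples lay in introns of kay, the Drosophila Fos, and of tna itself, and at -309 bp from a start of pnt, an ETS factor of receptor tyrosine kinase signalling.
kay (chr3R:29771865-29771965): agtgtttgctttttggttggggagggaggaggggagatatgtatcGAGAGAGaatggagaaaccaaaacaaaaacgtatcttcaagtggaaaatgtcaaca
tna (chr3L:10856661-10856761): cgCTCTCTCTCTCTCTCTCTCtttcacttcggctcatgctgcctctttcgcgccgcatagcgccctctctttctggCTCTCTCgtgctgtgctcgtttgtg
pnt (chr3R:23295497-23295597): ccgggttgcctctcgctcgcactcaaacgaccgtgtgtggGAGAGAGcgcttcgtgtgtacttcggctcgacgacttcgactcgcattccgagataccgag
The DRE examples lay in an intron of Tudor-SN, a nuclease of the RNA-induced silencing complex, at -28 bp from the start of CG2701 and at -73 bp from a start of the tumour suppressor p53.
Tudor-SN (chr3L:262867-262967): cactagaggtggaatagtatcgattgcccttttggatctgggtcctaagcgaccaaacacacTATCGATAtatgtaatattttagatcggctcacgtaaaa
CG2701 (chrX:2720305-2720405): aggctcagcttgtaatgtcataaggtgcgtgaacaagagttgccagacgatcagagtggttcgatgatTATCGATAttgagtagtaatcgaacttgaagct
p53 (chr3R:23054105-23054205): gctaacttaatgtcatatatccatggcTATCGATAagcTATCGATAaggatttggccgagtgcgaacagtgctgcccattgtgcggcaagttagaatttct
The signal per peak of these 6, which is the authors' and was used here only within a list, was 145.4 at kay, 132.0 at tna, 117.8 at pnt, 129.0 at Tudor-SN, 126.5 at CG2701 and 116.5 at p53. The tna window held a long CT run and a further match, and the p53 window held 2 DREs. In replicate 1's ranked list the strongest overlapping peak stood at rank 30569 for kay, 2534 for tna, 2335 for pnt, 3897 for Tudor-SN, 1816 for CG2701 and 2286 for p53. Of these 6 places the kay intron stood farthest down that list.

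GAGAGAG on either strand lay within 100 bp of the summit of 144 of the 1147 peaks (12.6%, 95% exact interval 10.7 to 14.6%). It lay in 50 of 1522 shared peaks (3.29%), a difference of 9.27 percentage points (7.21 to 11.5; two-sided Fisher's exact test, adjusted p = 4.435e-19 over 16 strings). Among the 685 peaks found in replicate 1 only, which are the nearest counterpart, it lay in 16 (2.34%), a difference of 10.2 points (7.93 to 12.5; exact test, adjusted p = 3.868e-15). The share was 4.68% in windows of the same length at 19275 starts of protein-coding genes and 3.24% at the 107043 ranked replicate 2 peaks outside the list. These p-values compare peaks of 2 libraries and do not describe variation between embryos. The strings were chosen with earlier results of these data known, so the p-values here and for the other strings are not independent tests. GAGA was higher in both comparisons under each of the 18 alternatives run, from 3.83 to 18.6 points against shared peaks and from 3.98 to 19.6 points against replicate 1 only peaks. Some alternatives changed the window or the string, so these ranges do not describe a single quantity. Against shared peaks the low end was the 50 bp window (5.67% against 1.84%). The high end was the shorter string GAGAG (39.0% against 20.4%).

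TATCGATA lay in 82 of the 1147 peaks (7.15%, 5.73 to 8.80%). It lay in 460 shared peaks (30.2%), a difference of -23.1 points (-25.8 to -20.3; Fisher's exact test, adjusted p = 2.301e-52), and in 127 of the replicate 1 only peaks (18.5%), a difference of -11.4 points (-14.8 to -8.21; adjusted p = 2.03e-12). Starts of protein-coding genes held it at 6.44% and ranked peaks outside the list at 0.557%. CGATA, which lies inside every DRE and is therefore counted with it, was at 424 of the 1147 peaks (37.0%) against 77.9% of shared peaks and 57.2% of replicate 1 only peaks, with adjusted p-values from the exact test of 3.56e-102 and 5.411e-16. Only 3 of the peaks held both GAGA and DRE, and 924 held neither.

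The dinucleotide repeat CACACACA was the other string found more often in both comparisons, at 108 peaks (9.42%) against 2.96% of shared peaks (exact test, adjusted p = 6.328e-12) and 2.77% of replicate 1 only peaks (adjusted p = 3.714e-08). It was present with GAGA in 20 peaks. TATAAA, the core of the TATA box, was at 169 peaks (14.7%) and TAATTA, a core bound by homeodomain proteins, at 67 (5.84%). Both were lower than in shared peaks (19.8% and 9.13%; exact test, adjusted p = 0.001882 and 0.004261) and than in replicate 1 only peaks (27.0% and 13.1%; adjusted p = 9.396e-10 and 4.21e-07). The E-box CACGTG, at 46 peaks (4.01%), passed only against replicate 1 only peaks (1.90%, exact test, adjusted p = 0.03078), and lost that call in 10 of 16 alternatives, over which adjusted p ran from 0.007904 to 0.5205. In all, 6 of 16 strings passed against shared peaks, 2 higher and 4 lower, and 7 of 16 against replicate 1 only peaks, 3 higher and 4 lower. Motif 1 (GGTCACAC), a core promoter element of housekeeping genes, did not pass, at 58 peaks (5.06%) with an interval of the difference from shared peaks of -3.28 to 0.310 points.

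**Figure D1:**
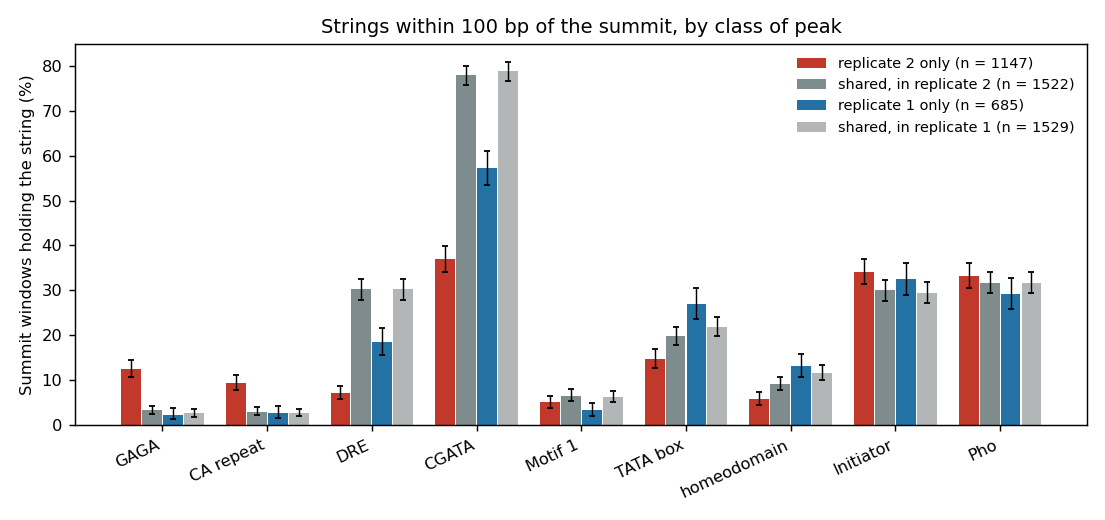
Share of peaks (vertical axis, percent) whose window of 100 bp either side of the summit holds each string, for replicate 2 only, replicate 1 only and shared peaks (the latter in each replicate's list); error bars are 95% exact binomial intervals. GAGA stands at 12.6% in replicate 2 only peaks and at 3.29% and 2.34% in shared and replicate 1 only peaks, while DRE stands at 7.15%, 30.2% and 18.5%.

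The windows also differed in base composition. Their median GC content was 47.3% (quartiles 41.8 and 52.2%), against 40.8% in shared peaks, 39.3% in replicate 1 only peaks and 42.3% at protein-coding starts, and equal to the 47.3% of ranked replicate 2 peaks outside the list. Of replicate 2 peaks under 40% GC, 200 of 899 (22.2%) were replicate 2 only, and the share was 36.9% from 40 to 45%, 52.3% from 45 to 50% and 73.1% at 50% or more. GAGA was at 17.9% of the replicate 2 only peaks of 50% GC or more, at 10.5% of such shared peaks and at 3.70% of such replicate 1 only peaks. Below 45% GC, GAGA was at 6.03% against 1.74% and 1.61%, and at 45% or more at 16.5% against 7.24% and 4.28%, with all 4 differences past the threshold. The DRE difference from shared peaks also passed in both GC ranges. Against replicate 1 only peaks of 45% GC or more, DRE was at 2.37% against 3.74% (exact test, adjusted p = 0.5481; 3.56e-15 to 0.5481 over 16 alternatives) and CGATA at 28.4% against 28.3%, so neither difference was detectable there. Under 40% GC, DRE was at 23.0% (17.4 to 29.5%) against 27.3% (22.8 to 32.2%) of replicate 1 only peaks. It was at 8.22% against 15.6% from 40 to 45% GC and at 4.62% against 7.6% from 45 to 50%. At 50% or more it was at 0.726% against 0.926%. These narrower ranges were not tested, and the difference over all peaks does not allow for GC content. TATAAA did not pass against shared peaks below 45% GC (23.7% against 23.0%) or at 45% or more (9.36% against 11.7%), and against replicate 1 only peaks it did not pass at 45% or more (9.36% against 10.7%). TAATTA passed in neither range against either class. CACACACA passed in both ranges against shared peaks, and against replicate 1 only peaks it did not pass below 45% GC (3.94% against 1.61%). Motif 1 passed against shared peaks at 45% GC or more (3.49% against 8.88%; exact test, adjusted p = 0.0008466; 0.0008466 to 1.00 over 16 alternatives).

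**Figure D2:**
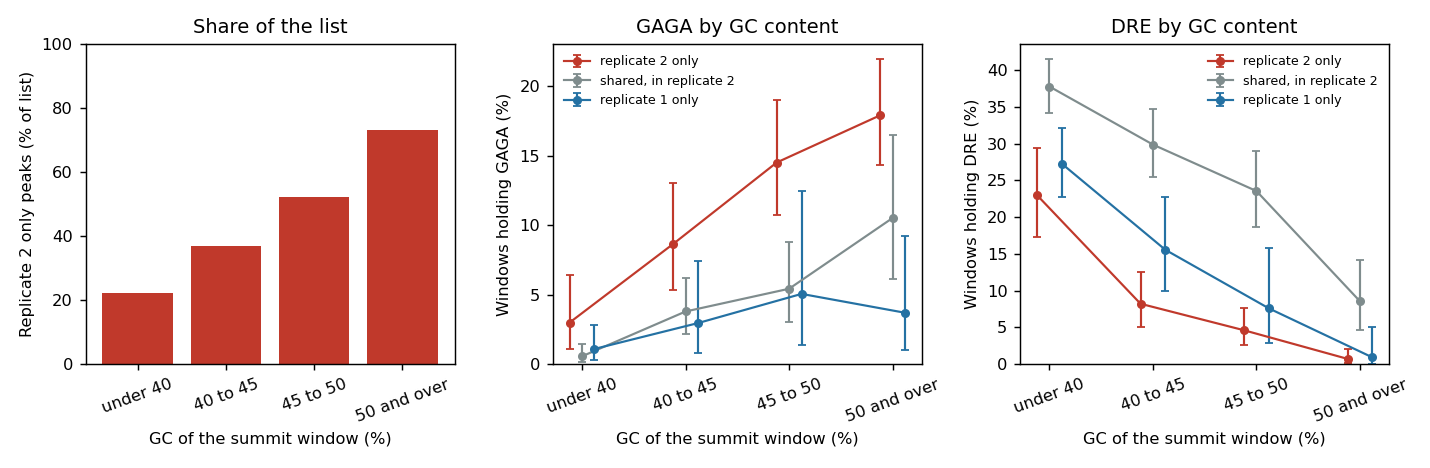
Left, share of the replicate 2 list that is replicate 2 only (percent) by GC content of the 201-base summit window; centre and right, share of windows holding GAGA or DRE (percent) by the same GC ranges, with 95% exact intervals. The left bars rise from 22.2% to 73.1%, and GAGA in replicate 2 only peaks rises from 3.0% to 17.9% while DRE falls from 23.0% to 0.726%.

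Most of the 1147 peaks still lay at promoters. The summit was within 500 bp of a TSS for 860 (74.98%, 72.4 to 77.5%), against 93.4% of shared peaks, a difference of -18.5 points (-21.3 to -15.7; Fisher's exact test, p = 5.261e-41). Against the 71.1% of replicate 1 only peaks the difference was 3.88 points (-0.286 to 8.14; exact test, p = 0.07107). The latter depended on which peaks were compared. In 6 of 15 alternatives the share was higher and passed, up to 17.5 points at 45% GC or more (74.7% against 57.2%). In the opposite direction, among peaks at or above the median signal of their lists the share was 78.3% against 88.0% (exact test, adjusted p = 0.02461; 5.13e-06 to 0.7589 over 15 alternatives).

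The location classes differed from those of shared peaks. Within 100 bp of a TSS lay 566 peaks (49.3%), against 79.5% of shared peaks (exact test, adjusted p = 2.54e-59 over 8 classes). Introns held 151 (13.2% against 3.61%, exact test, adjusted p = 2.508e-19), intergenic sequence 77 (6.71% against 2.10%, adjusted p = 6.705e-09) and coding exons 45 (3.92% against 0.197%, adjusted p = 1.338e-13). The class beyond 100 and up to 500 bp held 294 (25.6% against 13.9%, exact test, adjusted p = 9.357e-14), but among peaks below the median signal it was 28.5% against 28.3%. At or above that median, coding exons were at 0.388% against 0 and did not pass. The 5′ UTR beyond 500 bp of a start held 6 peaks against 0 (exact test, adjusted p = 0.008336), whereas the 3′ UTR, with 6, and noncoding exons, with 2, did not pass. Against replicate 1 only peaks 0 of 8 classes passed by Fisher's exact test with adjustment, with interval limits of the difference within 100 bp of -1.07 and 8.35 points. No class passed at an unadjusted p under 0.05 either. At 45% GC or more, 45.4% against 26.7% lay within 100 bp of a TSS and 5.73% against 14.4% in coding exons, and both differences passed.

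**Figure D3:**
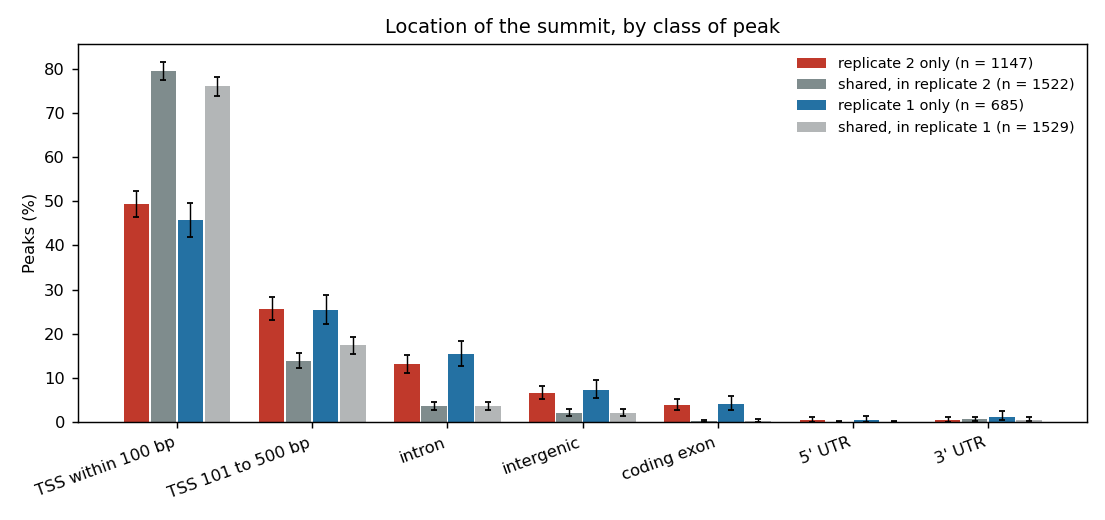
Share of peaks (vertical axis, percent) by location of the summit, for the replicate 2 only, replicate 1 only and shared peaks (the latter in each replicate's list); error bars are 95% exact intervals. Replicate 2 only peaks stand at 49.3% within 100 bp of a TSS and shared peaks at 79.5%, and at 13.2% and 3.61% in introns.

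Relative to the direction of transcription, the summits also sat elsewhere. Of the 816 peaks within 500 bp of a protein-coding start, 361 (44.2%) lay upstream, with a median position 14 bp downstream of the start (quartiles -44.5 and 80.0 bp). Shared summits had a median of -28 bp and 71.5% upstream, and replicate 1 only summits -38 bp and 65.5%. The differences were -27.3 points (-31.4 to -23.1; Fisher's exact test, p = 5.236e-36) and -21.3 points (-26.7 to -15.6; p = 3.372e-13), in a comparison added after the values were seen. These p-values are therefore a description and not an independent test. Limiting the peaks to those at TSSs, which is among the alternatives, leaves this comparison unchanged by construction. The difference from shared summits was -8.66 points below the median signal (43.3% against 51.95%) and -13.9 at 45% GC or more (37.9% against 51.8%). In windows of 45% GC or more, 37.9% of summits against 28.7% of replicate 1 only summits were upstream (exact test, p = 0.08956; 1.499e-18 to 0.08956 over 13 alternatives), the opposite direction.

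Location and sequence went together within the 1147 peaks. The 144 GAGA peaks had 68.8% at TSSs, 24.3% in introns and a median GC content of 50.2%. The 82 DRE peaks had 87.8% at TSSs, 80.5% within 100 bp, 3.66% in introns and a median GC content of 38.6%. Of the 151 intronic peaks, 35 held GAGA (23.2%) and 3 held DRE. The median distance from string to summit was 26.5 bp for DRE and 53.0 bp for GAGA, beside 24.0 and 45.5 bp in shared peaks. Within 50, 100 and 200 bp of the summit, GAGA was at 5.67%, 12.55% and 20.05% of the 1147 peaks. In the same windows DRE was at 5.405%, 7.15% and 9.07%, so the GAGA share rose more as the window widened. Whether GAGA lay closer to the summit than a random place in the window was not tested. Away from starts, GAGA was at 15.7% of the peaks against 5.0% of shared peaks (exact test, adjusted p = 0.02771; 9.079e-31 to 0.02771 over 18 alternatives), while CACACACA was at 11.5% against 9.0% and did not pass. There CGATA was at 28.2% against 30.3% of replicate 1 only peaks and did not pass either.

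The X chromosome held 117 of the 1147 peaks (10.2%), against 19.5% of shared peaks, a difference of -9.31 points (-11.9 to -6.63; Fisher's exact test, adjusted p = 1.668e-10 over 7 arms). Against the 18.1% of replicate 1 only peaks the difference was -7.90 points (-11.4 to -4.61; exact test, adjusted p = 1.484e-05). X carries 16.99% of protein-coding starts and 19.4% of the ranked replicate 2 peaks. The difference from shared peaks was not detectable away from starts, at 9.06% against 17% (exact test, adjusted p = 0.2859; 2.061e-09 to 0.2859 over 13 alternatives), and that from replicate 1 only peaks was not detectable away from starts, at 45% GC or more, or among peaks with no counterpart in the top 10000 ranks. Arm 2R held 25.5% and arm 3L 23.5%, both above shared peaks (exact test, adjusted p = 0.03256 and 0.001996), and 2R was also above the 20.3% of replicate 1 only peaks (adjusted p = 0.04284). The 2R call was lost in 9 of 13 alternatives against shared peaks and in 13 of 13 against replicate 1 only peaks, and the 3L call in 4 of 13. Arm 4 held 13 peaks (1.13%), against 0.460% of shared peaks, and did not pass (exact test, adjusted p = 0.1176). No Y peak was listed, which allows a share of up to 0.262% (3 of 1147 peaks; the 95% exact upper limit is 0.321%).

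Signal was part of what separates the classes, since a peak must pass the threshold in both libraries to be shared, and it is given as a description. The 1147 peaks had a median signal of 75.8 (quartiles 65.9 and 89.8, range 2.21 to 210.9), and shared replicate 2 peaks had a median of 113.5 (88.1 and 158.2, up to 962.6). Of the strongest 667 peaks of the list, 33 (4.95%) were replicate 2 only, followed by 33.7%, 63.6% and 69.6% in the next 3 groups of 667 or 668 peaks. GAGA was at 24.2%, 14.2%, 14.6% and 9.03% of the replicate 2 only peaks of these 4 groups, and at 2.52%, 3.39%, 3.29% and 5.42% of the shared ones. DRE was at 18.2%, 10.2%, 6.13% and 5.81%, against 35.6%, 30.3%, 25.9% and 18.2%. Signal was not matched within these groups: in the strongest one the replicate 2 only peaks ran from 126.5 to 210.9 and the whole group from 125.4 to 962.6. By the deposited q-values, 511 of the peaks (44.6%) and 82.1% of shared peaks stood at 0.05 or below.

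**Figure D4:**
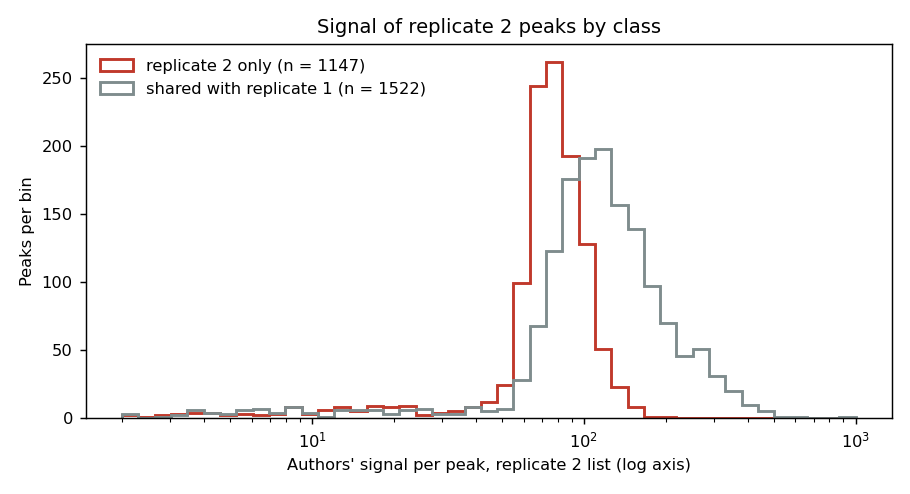
Number of replicate 2 peaks per bin (vertical axis) by the authors' signal (horizontal log axis), for peaks shared with replicate 1 and replicate 2 only peaks. The replicate 2 only peaks have a median of 75.8 and reach 210.9, and the shared peaks have a median of 113.5 and reach 962.6.

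For 91 of the peaks, both underlying peaks of the ranked list were also those of a stronger listed peak, and their signal ran from 2.21 to 42.9. The 5 lowest were all of this kind, near bmm, a triglyceride lipase (2.21), CG34150 (2.27), stc (2.40), the kinase par-1 (2.77) and Mapmodulin (2.998). Without the 91, GAGA stood at 12.9% against 3.23% of shared peaks.

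Replicate 1 usually had a peak at these places that missed its threshold, though strength was not compared peak by peak. Its ranked list, which holds 125705 peaks on the arms with no threshold, had an overlapping peak for 1044 of the 1147 (91.0%, 89.2 to 92.6%) and none for 103. That list covers 30.1% of arm bases, and 78.2% of ranked replicate 2 peaks outside the thresholded list overlapped it as well. Restricted to the top 10000 ranks, which cover 2.55% of arm bases, it had a peak at 598 (52.1%, 49.2 to 55.1%), against 99.8% of shared peaks and 9.58% of ranked peaks outside the list. The strongest overlapping peak had a median rank of 7183 (quartiles 3253 and 21870), and 780.5 for shared peaks. None of the 1147 overlapped a replicate 1 ranked peak with an irreproducible discovery rate (IDR, the rate used to cut the lists) of 0.01 or less. The rule that chose the peaks fixed this in advance, since the replicate 1 list was cut at that rate. In the opposite direction, 65.0% of the replicate 1 only peaks had a peak in the top 10000 of replicate 2.

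The DRE peaks stood higher in replicate 1 than the GAGA peaks. Of the 82 DRE peaks, 66 (80.5%) had a top 10000 peak there and 58 (70.7%) overlapped the conservative list, which the authors made from both replicates. Of the 144 GAGA peaks, 64 (44.4%) had a top 10000 peak and 35 (24.3%) overlapped that list. Among all 1147, 430 (37.5%) overlapped the conservative list and 750 (65.4%) the other list from both replicates, against 98.2% and 98.9% of shared peaks. GAGA was at 13.6% of the 103 peaks with no ranked replicate 1 peak at all, and DRE at 4.85%. These ranks come from the libraries that chose the peaks, so no test was made.

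**Figure D5:**
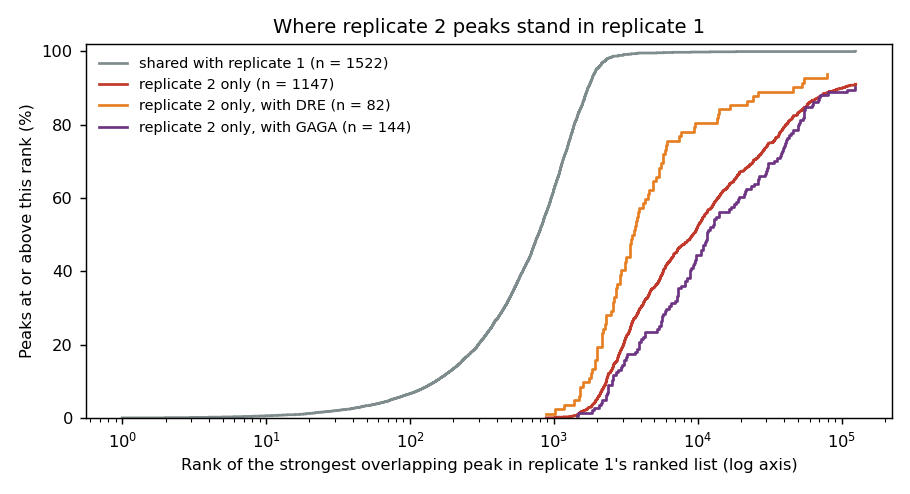
Cumulative share of replicate 2 peaks (vertical axis, percent) by the rank of the strongest overlapping peak in replicate 1's ranked list (horizontal log axis). At rank 10000 the curves stand at 99.8% for shared peaks, 80.5% for replicate 2 only peaks with DRE, 52.1% for all replicate 2 only peaks and 44.4% for those with GAGA.

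The limit of 1 bp left near neighbours on both sides. The members nearest a replicate 1 peak, without overlap, were at Polr3B and Sarm (gap 0 bp), CG9289 (8 bp), l(3)73Ah (12 bp) and Syx17 (14 bp), with signals of 3.69, 23.7, 18.8, 82.1 and 24.9. For the Sarm peak, inside that gene, the nearest start was that of tRNA:Leu-CAG-1-6, at -186 bp. For the CG9289 peak it was that of tRNA:Asp-GTC-1-9, at -192 bp. The shared peaks with the smallest overlap were at CG8191 (overlap 6 bp), vig2 (12 bp), RtcB and sfl (13 bp each) and Orc6 (17 bp), with signals of 6.05, 9.05, 5.60, 163.7 and 3.57. In all, 85 of the peaks lay within 500 bp of a replicate 1 peak, and 3 of those held GAGA.

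The strongest 25 peaks had signals from 132.0 to 210.9, and 17 lay at protein-coding promoters, 8 held GAGA and 4 held DRE. The highest, with 210.9, lay at -10 bp from the start of tRNA:Lys-CTT-1-5, with Cyp6w1 the nearest protein-coding start, 43 bp from a replicate 1 peak. Developmental regulators among them were mam, the Notch coactivator (intron, signal 166.5), kay (intron 145.4, promoter 134.4), the T-box gene H15 (at -536 bp, 144.1), the eye selector gene ey (at -800 bp, 148.1), pan, the TCF of Wingless signalling (143.2), dally, a glypican that shapes Wingless and Dpp gradients (133.9), and psq, whose product binds GAGA repeats (intron, 133.3). The promoters of comm, an axon guidance gene (153.0), Pits (151.7) and shot, a cytoskeletal crosslinker (136.1), were also among them. Other promoters were those of Gdh, glutamate dehydrogenase (145.0), Thor, the translational repressor 4E-BP (142.7), Secp43 (149.9), Ufc1 (146.0), SCaMC (135.7), Atxn7 of the SAGA complex (142.5), CDK2AP1 (138.6) and Wdr37 (136.6). The remaining ones were near CG5568 (148.9) and at CG46385 (132.9), CG13784 (132.9), CenG1A (132.2) and a tna intron (132.0). Replicate 1 had a ranked peak at 22 of the 25, and the 3 at tRNA:Lys-CTT-1-5, ey and pan had none.

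Some genes held several peaks of this class. At least 3 lay in or within 500 bp of 39 genes, and at least 5 at 4 genes. Counted as separate regions, with overlapping peaks joined, at least 3 lay at 24 genes and at least 5 at 3, a count added after the values were seen. Neither count was made for the other classes of peaks or set against all genes. Gene length was not allowed for, and it was 113.7 kb for Eip75B, 77.9 kb for shot, 50.7 kb for ftz-f1 and 9.92 kb for bmm. The tna locus held 7, in 6 regions, over 24.4 kb beside 6 shared peaks, 3 of the 7 with GAGA. As tna is the gene that was tagged, its own locus may be a special case, and whether the transgene affected signal there was not tested. The nuclear receptor gene ftz-f1 held 7 over 46.2 kb beside 1 shared peak, 5 of the 7 with GAGA, with signals from 62.3 to 101.5. At kay there were 5 and no shared peak, 4 of them with GAGA, with signals from 78.6 to 145.4. HmgD, a high mobility group protein gene, held 5 in 3 regions and no GAGA. Genes with 4 were mam, shot, KCNQ, Eip75B, bin3, SNF4Agamma, shn, ctrip and bmm, of which mam, shot and shn had 4 separate regions and the others 3. Genes with 3 included psq, pnt, EcR, Mef2, Tlk, skd, rdx and Rgl, and both Tlk and Rgl had GAGA at all 3, in 3 regions at Tlk and 2 at Rgl. Mef2 also had 2 regions.

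A start within 500 bp of a replicate 2 only summit was found for 847 of 13968 protein-coding genes (6.06%). The shares were 12% for shared replicate 2 summits, 4.57% for replicate 1 only summits and 17.7% for the whole replicate 2 list. Of the 847 genes, 763 had no summit of the replicate 1 list or shared summit at any start. This does not mark these genes, since over all genes only 12% had a shared and 4.57% a replicate 1 only summit. The rule also left out every peak that overlapped replicate 1. Lists of genes are counted against the 6.06%, with no test. The counts by class can overlap, since a gene may have summits of several classes near its starts. Of the 847 genes, 84 also had a replicate 1 list summit within 500 bp of a start, and 58 a shared one. Among genes named below, a shared summit was also found at mam, Eip75B, Mef2, crol, Hsc70-5 and Cdk4. At velo there was a replicate 1 list summit.

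Signalling, patterning and muscle genes were counted by list. Of 38 genes of the Dpp and Wingless pathways, 12 had a replicate 2 only summit (31.6%), 4 a shared one and 3 a replicate 1 only one. They were pan, the receptor gene fz (119.4), the antagonist nkd (111.8), the receptor genes sax (111.1), tkv (98.9) and arr (95.9), the Hedgehog effector ci (97.8), the scaffold genes Apc (85.5) and Axn (67.4), the cofactor shn (82.5), the Dpp antagonist sog (79.2) and the Smad gene Smox (69.5). Of these 12, fz held GAGA and sax held DRE, and pan and ci, both on chromosome 4, had no ranked replicate 1 peak. Of 24 segmentation genes, 5 had one (20.8%) and 1 a shared one. The 5 were opa (115.1), the gap gene Kr (87.5), en (74.9), slp2 (65.3) and ems (62.7). No Hox gene of 8 had one, and 1 had a shared one. Of 19 Notch pathway genes, 4 had one (21.1%) and 5 a shared one. The 4 were the protease gene kuz (112.9), the receptor gene N (103.6), mam (97.0) and numb (71.7). Of 23 ecdysone response and nuclear receptor genes, 5 had one (21.7%) and 4 a shared one, the former including EcR (111.5), Eip75B (110.0) and Hr78 (80.2). Of 24 muscle genes, 4 had one (16.7%) and 2 a shared one, the former led by Mef2 (96.1), Zasp52 (90.1) and lbe (85.4).

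For lists of chromatin and promoter factor genes the counts of replicate 2 only summits were below those of shared summits, as they were over all genes (6.06% against 12%). Of 27 genes of the Trithorax group and Brahma complex, 2 had a replicate 2 only summit (7.41%) and 8 a shared one. The 2 were the Mediator gene skd (92.1) and Trl, the GAGA factor gene itself (70.8). Of 22 Polycomb group genes there were 2 (9.09%) and 7 shared, Psc (109.1, with GAGA) and crol (62.4). Of 19 insulator and promoter factor genes there were 3 (15.8%) and 9 shared, Trf2 (83.6), mod(mdg4) (80.9) and Trl. Of 11 SUMO pathway genes there was 1, velo (77.5), and 3 shared. No hemocyte or fat body gene of 19 had one, and of 26 neural genes only cpx (77.6) had one.

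Genes of general cell functions were counted in the same way. Cytosolic ribosomal protein genes had 16 of 92 (17.4%) beside 20 shared, led by RpLP0-like (106.6), RpL29 (97.2) and RpL8 (93.7). Mitochondrial ribosomal protein genes had 3 of 73 (4.11%) beside 13 shared, proteasome subunit genes 2 of 48 (4.17%) beside 12, and DNA replication genes 3 of 32 (9.38%) beside 8. Cell cycle genes had 5 of 24 (20.8%) beside 8, led by thr (77.5), E2f1 (76.0) and Cdk4 (70.4), and heat shock genes 4 of 21 (19.05%) beside 4, led by Hsc70-5 (91.5), Hsc70-4 (80.2) and Hsp22 (76.1). Of 179 chemoreceptor genes, which encode sensory receptors, 1 had one, Ir31a, whose summit lay nearer CG17768. In several cases the summit lay nearer a neighbouring start, such as Lsm10 for RpS15Ab and Dhdds for RpS14a, so a gene counted here need not be the nearest.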

How the data were processed

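Peak lists were deposited by the authors for 2 biological replicates of tna-eGFP embryos on dm6. Per the deposited notes, each replicate's thresholded and ranked lists derive from its own alignment, and 2 further lists derive from both. The peak caller and the aligner are unknown (not given in the sources used here). Column 7 of the deposited lists is the signal of each peak. The deposited −log10 columns hold the q-value of a peak and, in ranked lists, its global IDR (all listed peaks of replicate 2 had at least 2.00). The depth of the libraries is unknown, and intervals cover counting error only. No per-sample column was left out.

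Peaks on 7 arms were compared by overlap of at least 1 bp. Starts and gene parts came from Ensembl release 115, and bases from the RefSeq dm6 sequence; 99.8% of annotated start codons read ATG there. Strings were searched on both strands within 100 bp of summits (201 bases). Shares were compared by two-sided Fisher's exact tests, adjusted by the Benjamini-Hochberg method within 16 strings, 8 locations or 7 arms at 0.05, with Clopper-Pearson intervals for shares and Newcombe intervals for differences at 95%. The tests were checked on simulated data in which windows and strings were independent of each other. That check does not cover overlapping windows or strings that occur together. Python 3.11.15, numpy 2.4.6, scipy 1.17.1, pandas 2.3.3 and matplotlib 3.10.9 were used.

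The class, its gene lists (19 lists, 729 of 751 symbols matched) and strings were chosen with earlier results of these data known. Genes named are those of the 25 highest and 5 lowest signals, up to 3 per list by signal, those with at least 3 peaks and those nearest the overlap limit; further members of the signalling and segmentation lists were named after their values were seen. A peak was named by the nearest protein-coding start within 500 bp, otherwise by the gene holding it, otherwise by the nearest start. Sequences printed are the 3 strongest per element outside 2R with at most 30 UTR bases, the element being required within the 101 bases shown. Both replicates define the class, so neither could be left out. The alternatives varied the overlap rule, the q-value, overlapping peaks, X, signal, ranks, location, windows and strings, and the GC ranges and secondary peaks were added after the data were seen.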

Additional observations from a re-analysis of the deposited data

How the results depend on the processing

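The lists have no depth and there are 2 libraries, so a class of peaks in 1 library cannot be separated from how strong that library was. GAGA kept its direction and call in both comparisons under 18 alternatives, DRE and CGATA against shared peaks under 16, and the TSS share against shared peaks under 15. Leaving out a replicate could not be run because the class needs both lists. No paired analysis was possible because there is 1 group. Where a value changed, the cause was not tested. With both lists cut at a q-value of 0.05 and overlap taken again, there were 593 replicate 2 only peaks. They include the 511 given above and peaks that were shared in the full lists. Genes with at least 3 peaks numbered 24 by separate regions, from 39. The share with a replicate 1 peak was 69.2% for summits within 100 bp and 35.8%, 52.1% and 67.1% for the top 5000, 10000 and 20000. Away from starts 3 strings passed in each comparison, and 3 against replicate 1 only peaks at 45% GC or more. DRE against replicate 1 only peaks was -3.59 points away from starts and -1.37 at 45% GC or more, where CGATA was 0.00971 and the upstream share 9.21. The TSS share against replicate 1 only peaks passed when gaps under 500 bp counted as shared (4.55 points), without X (5.14), below the median signal (6.69), with no top 10000 counterpart (7.68), at 45% GC or more (17.5) and with a 250 bp window (6.22), and reversed at or above the median signal (-9.71) and below 45% GC (-0.899). X against shared peaks was -7.94 away from starts. X against replicate 1 only peaks was -4.33 with no top 10000 counterpart, -4.58 away from starts and -3.48 at 45% GC or more. Arms past the threshold against shared peaks were 1 at a q-value of at most 0.05 and 0 away from starts, from 3. Against replicate 1 only peaks they were 0 with no top 10000 counterpart, away from starts and at 45% GC or more, and 1 in 10 other alternatives, from 2. Location classes past the threshold against replicate 1 only peaks were 1 at or above the median signal, 1 with no top 10000 counterpart and 2 at 45% GC or more, from 0. Against shared peaks, Motif 1 reversed below the median signal (0.344), below 45% GC (1.99) and with 200 bp windows (1.01), TATAAA below 45% GC (0.631), TAATTA with 50 bp windows (0.0544), and CACGTG at or above the median signal (-0.302) and with no top 10000 counterpart (-0.0871). Against replicate 1 only peaks, Motif 1 reversed at or above the median signal (-0.487) and arm 3L away from starts (-1.58). The class beyond 100 and up to 500 bp reversed when 50% of the shorter peak had to overlap (-1.76), by summits within 100 bp (-2.65), at a q-value of at most 0.05 (-4.37), with 1 peak per overlapping group (-1.40), at or above the median signal (-15.3), below 45% GC (-4.004), at 45% or more (-1.15) and without secondary peaks (-1.78). Introns reversed at or above the median signal (4.40) and with no top 10000 counterpart (0.455), intergenic peaks at or above the median signal (4.53) and below 45% GC (2.78), and coding exons there (0.388 and 0.727) and by q-value (0.0333). The other 8 strings passed in neither comparison; over 16 alternatives they passed in 14 of 128 values against shared peaks and 8 of 128 against replicate 1 only peaks, and changed sign in 31 and 22.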
